A study of Mus musculus with 6 samples.

Results

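The vomeronasal receptor genes are the 329 protein-coding genes of GENCODE vM21 on mouse chromosomes 1 to 19 whose symbols start with Vmn1r or Vmn2r, out of 21755 protein-coding genes on chromosomes 1 to 19 and X. They comprised 208 Vmn1r and 121 Vmn2r genes, 1 symbol (Vmn1r216) standing for 2 gene identifiers. Each was taken as its gene body plus 5 kb on either side in mm10 (GRCm38), and free DNA ends were counted there in libraries made by BLISS. In this assay, adaptors are ligated in situ to blunted and tailed DNA break ends of fixed nuclei, and the tagged DNA is copied by in vitro transcription before sequencing. The 5′ end of each aligned read was taken as the break end.

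The libraries were made from sorted forebrain neurons of CK-p25 mice, in which withdrawal of doxycycline switches on p25, a truncated activator of the kinase Cdk5, in forebrain excitatory neurons under a CaMKII promoter. There were 3 groups of 2 libraries, named Step2, Step1 and Con in the titles, and all 6 carry the same genotype and the same 2 weeks of induction. The labels state neither what Step2, Step1 and Con stand for, nor the animals' age or strain, nor whether the replicates were separate animals, so the p-values below refer to the spread between libraries alone, and this spread may be technical. The neuronal label could not be checked against marker genes, because DNA ends do not measure expression. The files held 1526487 and 1480461 reads for Step2, 2403238 and 2043098 for Step1, and 2300995 and 2273508 for Con, so the Step2 libraries were the least precise.

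Vomeronasal receptors are G protein-coupled receptors of the sensory neurons of the vomeronasal organ, where they detect pheromones and other cues from conspecifics and predators. Vmn1r genes encode V1R receptors, which have a short extracellular end, sit in apical neurons with the G protein subunit Gnai2 and respond mainly to small molecules. Vmn2r genes encode V2R receptors, which carry a large extracellular domain, sit in basal neurons with Gnao1 and respond mainly to peptides and proteins, and both kinds of neuron signal through the channel Trpc2. The genes lie in large tandem clusters grown by recent duplication.

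Many members were near-identical copies of each other. Of 298 start windows matched in the RefSeq set (GRCm38.p6; 297 members, 250 bases before to 50 after the start), 38 were identical to the window of another member, in 16 groups, and 36 of the 38 lay on chromosome 7. The last 150 bases of 4 such windows, 100 before and 50 after the annotated start, are shown because all of these genes had 0 reads in all 6 libraries. Capitals mark bases that differ from Vmn1r130 at the same place.
Vmn1r130 (chr7:21511680-21511829, + strand): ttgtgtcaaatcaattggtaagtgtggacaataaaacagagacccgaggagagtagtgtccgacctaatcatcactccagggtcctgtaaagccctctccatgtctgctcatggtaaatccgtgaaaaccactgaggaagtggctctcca
Vmn1r137 (chr7:21994487-21994636, + strand): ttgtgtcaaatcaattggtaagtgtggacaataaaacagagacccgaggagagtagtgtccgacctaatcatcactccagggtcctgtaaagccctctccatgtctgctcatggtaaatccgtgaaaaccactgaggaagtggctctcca
Vmn1r135 (chr7:21832251-21832400, + strand): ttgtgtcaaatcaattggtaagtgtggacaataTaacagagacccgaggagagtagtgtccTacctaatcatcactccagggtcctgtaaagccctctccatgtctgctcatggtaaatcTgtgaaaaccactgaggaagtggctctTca
Vmn1r152 (chr7:22522867-22523016, + strand): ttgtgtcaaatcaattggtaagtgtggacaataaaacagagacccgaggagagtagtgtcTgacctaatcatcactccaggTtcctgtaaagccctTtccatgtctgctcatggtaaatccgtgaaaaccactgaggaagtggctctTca
Vmn1r130 and Vmn1r137 were identical over the stretch, whereas Vmn1r135 and Vmn1r152 each differed at 4 of 150 bases (97.3% identity). Members whose start window was identical to another's had a median of 2 reads over the 6 libraries, and 13 of them had none, against a median of 97.5 reads for the other matched members.

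The members together held 33552 reads when each region was counted on its own, 14456 in Vmn1r and 19096 in Vmn2r regions. Reads per member over the 6 libraries ran from 0 to 624 with a median of 85, and reads per kb from 0 to 9.87 with a median of 4.18. Vmn1r genes were short, with a median gene body of 6.80 kb, and 49.8% to 51.5% of the reads of their regions per library lay in the gene body. Vmn2r genes, with a median of 27.1 kb, had 74.2% to 78.0% of their region's reads in the gene body. The regions of 44 members overlapped another member's region, and in 10 they also held part of another gene's body.

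Of the 329 members, 17 had no read in any library. All 17 were on chromosome 7, 15 of them Vmn1r genes, the other two being Vmn2r46 and Vmn2r47. At the average density of the genome their 259 kb of regions would have held 1163 reads. A count of 0 in the 11486258 pooled reads used for scaling allows up to 0.261 RPM (reads per 1000000 of the reads used for scaling) for each, from counting error alone. In these 17 regions at most 1.16% of the 48-base words, about the length of a read and counted after the data were seen, occurred once in the assembly, and 10 regions had no unique word at all.

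Read density went with the share of unique words over the whole family. Across the 329 members reads per kb and the share of unique words had a Spearman correlation of 0.86 and a Pearson correlation of 0.92, given as a description since members of a cluster share sequence and all members share the libraries. The 46 members with under 10% unique words had a median of 0.0916 reads per kb, and 45 of them were on chromosome 7. The median was 1.27 reads per kb in the 43 members with 10% to 50%, 4.26 in the 155 with 50% to 90%, and 5.30 in the 85 with 90% or more. Per kb of unique words the medians of these classes were close to each other, at 5.52, 5.70, 5.55 and 5.71, with members that had no unique word left out. The spread differed much more, from 0 to 1200 in the class under 10% and from 2.14 to 17.9 in that of 10% to 50%. It was 2.34 to 11.2 in the class of 50% to 90% and 3.78 to 8.73 in the last, so the lowest class is poorly described by its median. Over the same 329 members, reads per kb had a Spearman correlation of -0.26 with GC content and -0.35 with the share of repeats.

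**Figure D1:**
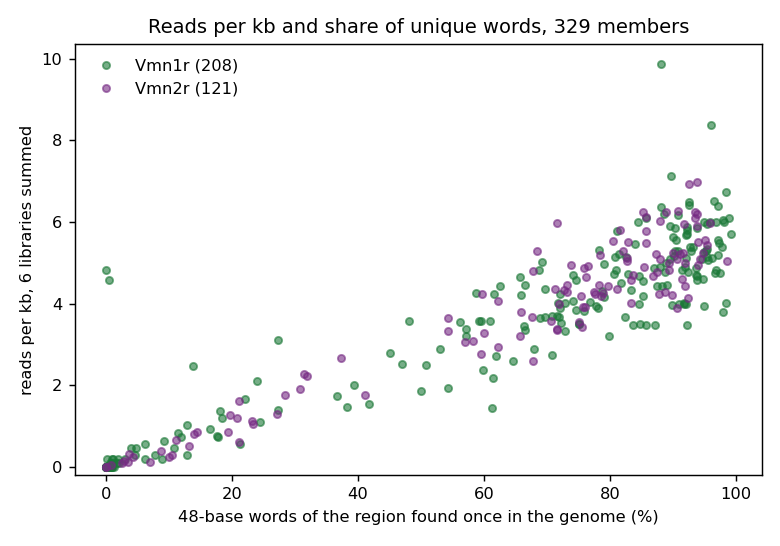
Reads per kb of each of the 329 members, summed over the 6 libraries, against the percent of 48-base words of its region found once in the assembly; green points are the 208 Vmn1r genes and purple points the 121 Vmn2r genes. Points climb from 0 at the left to about the median of 5.30 reads per kb at 90% or more; the 2 green points near 0% unique words with over 4 reads per kb are Vmn1r62 and Vmn1r63, and the highest point is Vmn1r19 at 9.87.

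A pair of members stood apart from this relation. Vmn1r62 (chr7:5673631-5676663, + strand) had no unique word but 4.83 reads per kb, with 7 and 9 reads in the Step2 libraries, 12 and 8 in Step1, and 26 and 1 in Con, where 16 of the 26 shared 1 position. Vmn1r63 (chr7:5802345-5805445, - strand) had 0.382% unique words and 4.58 reads per kb. For all 13 words of Vmn1r62 and all 14 of Vmn1r63 that were searched, at steps of 1 kb, a second copy lay on scaffolds of the assembly that are not placed on a chromosome. The deposited files held no read on such a scaffold.

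By position, the members fell into 29 clusters separated by more than 500 kb, 7 of them with a single member. The largest, chr7:20099680-24063554, held 65 Vmn1r genes from Vmn1r91 to Vmn1r183, with a median of 0.458 reads per kb and 9.17% unique words. The other cluster of low density, chr7:7231327-9223653, held 17 Vmn2r genes with a median of 0.381 reads per kb and 10.4% unique words. At the other end, the 12 Vmn2r genes of chr7:84935565-86246308, from Vmn2r65 to Vmn2r76, had a median of 6.05 reads per kb and 91.8% unique words. The 36 members of chr17:17703747-21314912, 22 Vmn2r and 14 Vmn1r genes, had 5.16 reads per kb and 90.7%. Chromosome 7, with 154 members, had 3.23 reads per kb over the union of its regions, and chromosome 17, with 46 members, had 4.68.

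**Figure D2:**
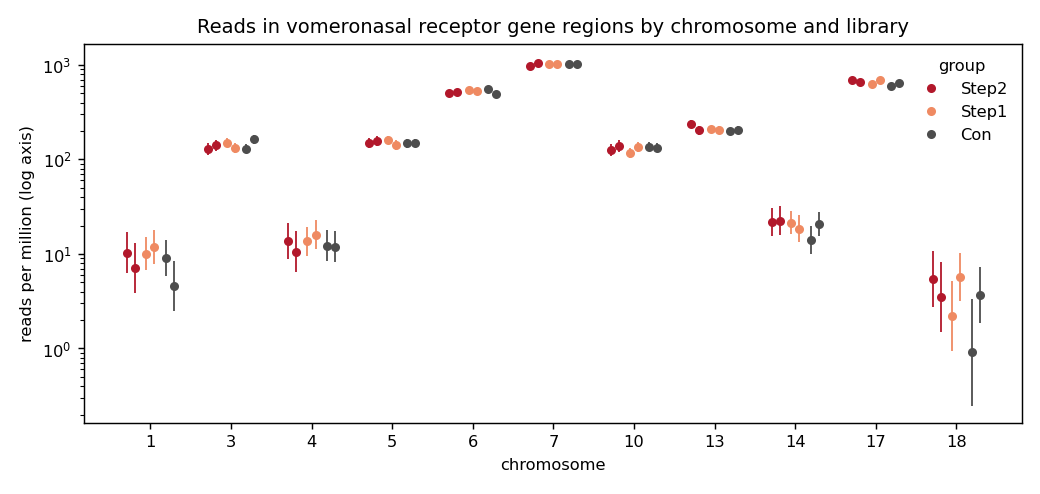
RPM on a log axis in the pooled vomeronasal receptor regions of each chromosome, 1 point per library with its 95% Wilson interval, in the order Step2 (red), Step1 (orange) and Con (grey). The libraries of the 3 groups lie close together on every chromosome with many members, chromosome 7 between 966 and 1040 RPM in all 6; the scatter is wide on chromosomes 1, 4, 14 and 18, where members are few.

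Among single members, the most reads fell on Vmn2r7 (chr3:64685044-64844765, - strand), the longest region. It had 70 and 67 reads in Step2, 127 and 103 in Step1, and 102 and 155 in Con. Vmn2r71, Vmn2r60, Vmn1r68 and Vmn2r102 followed with 448, 439, 377 and 349 reads over the 6 libraries. The members with the most reads per kb were instead Vmn1r19 (9.87), Vmn1r227 (8.39), Vmn1r14 (7.14), Vmn2r66 (6.99) and Vmn2r74 (6.92). Vmn1r19 (chr6:57403780-57406034, + strand) had 16 and 12 reads in Step2, 16 and 18 in Step1, and 26 and 33 in Con. Among members with at least 60 reads, it also had the largest share of reads below a mapping score of 30 (the aligner's confidence in a read's place, from 11 to 42 here), 26.4% of 121 reads, ahead of Vmn1r55 with 20.4% and Vmn2r88 with 17.7%. Among members with at least 10 reads, the lowest densities were those of Vmn2r40 (0.317 reads per kb), Vmn2r43 (0.381) and Vmn2r62 (0.507), all on chromosome 7 and with 3.55%, 8.67% and 13.1% unique words.

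Whether the vomeronasal regions differed from the rest of the genome was read within each library. Reads per kb of the members' regions were 0.874 ± 0.00859 times the genome average (SD, n = 6 libraries), against 1.10 ± 0.0161 times in other protein-coding gene regions and 1.13 ± 0.145 times in olfactory receptor regions, another large family of duplicated receptor genes. Here and below, other genes are all 21426 genes outside the members, the 1135 olfactory receptor genes among them. The members were lower in 6 of 6 libraries in both comparisons. The exact paired permutation test (two-sided) gave p = 0.031, the smallest that 6 libraries allow, and 0.0938 after Benjamini-Hochberg adjustment over the 12 tests of this kind, so neither passed 0.05. With 1 read counted per position, where fewer tests remain, both adjusted p-values were 0.0402. Leaving out piled-up windows (26 windows of 10 kb with over 20 times the reads of the median window), of which none lay in a member's region, gave 1.00 for other genes and 1.05 for olfactory receptors. With reads of the highest mapping score alone, 42, the members stood at 0.547 ± 0.0108 times the genome, against 1.07 ± 0.0227 in other gene regions and 0.919 ± 0.0208 in olfactory receptor regions, lower in 6 of 6 libraries in both (exact p = 0.031, not passing 0.05 after adjustment).

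The order against other genes turned when the density of reads of all scores was taken per kb of unique words, a setting added after the data were seen. Unique words made up 67.7% of vomeronasal regions, against 87.2% of olfactory receptor regions, 92.6% of other gene regions and 88.2% of the genome. Per unique kb the members stood at 1.14 ± 0.0112 times the genome, against 1.04 ± 0.0153 for other genes, higher in 6 of 6 libraries (exact paired permutation p = 0.031, adjusted 0.125). Against olfactory receptors, at 1.14 ± 0.147, the members were higher in 4 of 6 libraries (exact p = 1). With the piled-up windows left out as well, other genes stood at 0.957 ± 0.0230 and olfactory receptors at 1.06 ± 0.0220, and the members were higher in 6 of 6 libraries in both comparisons (exact p = 0.031, adjusted 0.075). The order did not turn with scores of 42 alone, piled-up windows included. Per unique kb the members then ran from 0.694 to 0.734 times the genome over the libraries. Other gene regions ran from 1.00 to 1.05 and olfactory receptor regions from 0.903 to 0.960, so the members were lower in every library. Vmn1r and Vmn2r regions stood at 0.885 ± 0.0200 and 0.866 ± 0.0171 times the genome per kb, and Vmn1r was the higher in 4 of 6 libraries (exact p = 0.25, adjusted 0.333). This difference was smaller than the spread between libraries. It was larger with scores of 42 alone, at 0.598 ± 0.0246 in Vmn1r and 0.510 ± 0.0112 in Vmn2r regions. In gene bodies without flanks it was also larger, at 1.05 ± 0.0299 and 0.878 ± 0.0118. Vmn1r was then higher in 6 of 6 libraries (exact p = 0.031 in each, not passing 0.05 after adjustment). Unique words, however, made up 82.2% of Vmn1r and 68.1% of Vmn2r gene bodies, against 69.0% and 66.8% with flanks. Per unique kb with flanks the classes stood at 1.13 ± 0.0255 and 1.14 ± 0.0226, and Vmn1r was higher in 2 of 6 libraries. Gene bodies were not compared per unique kb.

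**Figure D3:**
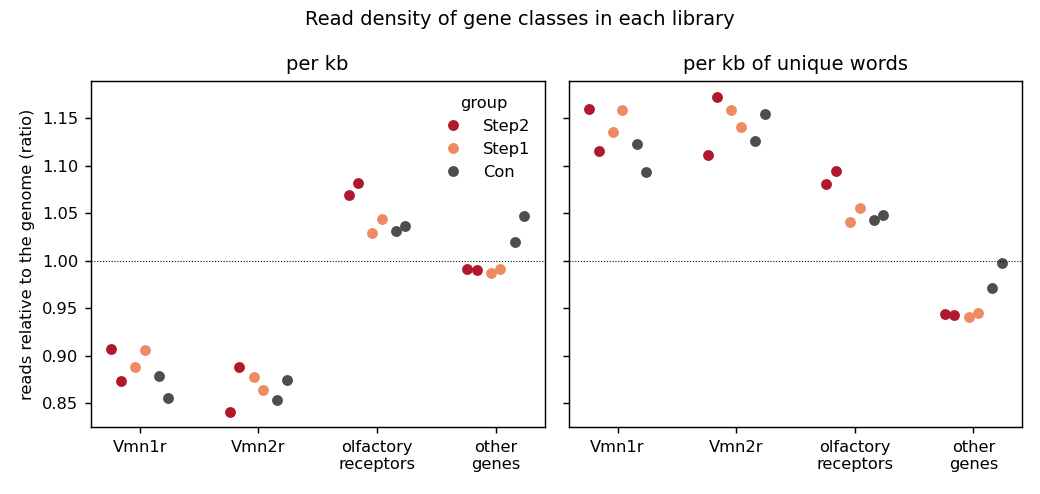
Reads relative to the genome average (1, dotted line) in each of the 6 libraries, per kb at the left and per kb of unique words at the right, for Vmn1r, Vmn2r, olfactory receptor and other gene regions, with piled-up windows left out; points are Step2 (red), Step1 (orange) and Con (grey), and the axis does not start at 0. The vomeronasal classes lie below the others per kb, about a mean of 0.874 for all members, and mostly above them per unique kb, about 1.14. Other gene regions include those of the olfactory receptors.

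Reads on the members also had low mapping scores. The highest score, 42, was held by 50.3% ± 1.20 of reads in vomeronasal regions, 65.9% ± 5.90 in olfactory receptor regions and 78.2% ± 1.02 in other gene regions (SD, n = 6). Scores below 30 were held by 7.37% ± 0.540 of vomeronasal reads and 7.12% ± 0.625 of reads in other gene regions (exact paired permutation p = 0.0625, adjusted 0.15). Without the piled-up windows the share in other gene regions was 4.27% ± 0.470, below the members in 6 of 6 libraries.

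Reads near the members' starts were compared with those farther off. The density within 1 kb of members' starts was 1.04 ± 0.0803 times that 4 to 5 kb away, against 1.38 ± 0.136 times in other genes, and was lower than in other genes in 6 of 6 libraries (exact paired permutation p = 0.031, adjusted 0.0938; with 1 read per position, adjusted 0.0402). Olfactory receptor genes had 1.05 ± 0.0329 times, and the members were higher in 3 of 6 libraries (exact p = 0.781). Vmn1r starts had 1.13 ± 0.159 times and Vmn2r starts 0.931 ± 0.0898 times, Vmn1r being higher in 5 of 6 libraries (exact p = 0.0938, adjusted 0.161). With 1 read per position the Vmn1r starts were 0.16 higher, a smaller difference than the 0.20 with all reads. It then passed 0.05 (exact paired permutation p = 0.031, the smallest possible, adjusted 0.0402), in a setting where fewer tests remain to adjust over. The start ratio takes no account of unique words. These made up 82.2% of Vmn1r gene bodies and 69.0% of Vmn1r regions with flanks, against 68.1% and 66.8% in Vmn2r. Whether this bears on the start ratio was not tested.

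**Figure D4:**
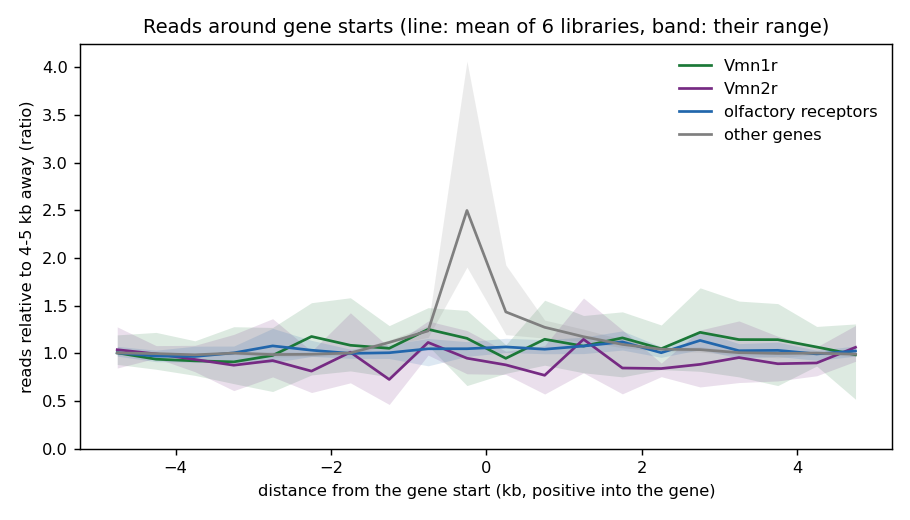
Reads in bins of 500 bases around gene starts, relative to 4 to 5 kb away, outside piled-up windows; lines are means of the 6 libraries and bands their range, for Vmn1r (green), Vmn2r (purple), olfactory receptor (blue) and other genes (grey). Other genes, which include the olfactory receptor genes, peak at 2.50 just before the start. The Vmn1r mean runs between 0.912 and 1.25 and the Vmn2r mean between 0.727 and 1.15.

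Single positions with many reads were found in few members and in single libraries. At least 10 reads shared 1 position and strand in 1 library at 33 positions in 31 members, 2 positions in Step2 replicate 1, 3 in Step1 replicate 1, 10 in Con replicate 1 and 18 in Con replicate 2. Every one of the 33 had reads from both sequencing runs, and no other library had more than 1 read at any of them. They lay in introns (10), flanks (7 upstream and 7 downstream), coding exons (6) and other exons (3). The Con libraries also had most such positions genome-wide, 2.15 per Mb of members' regions against 2.16 per Mb of the genome in Con replicate 2, and 1.19 against 0.862 in Con replicate 1. The rate was 0.358 against 0.147 in Step1 replicate 1, with 3 positions, and 0.238 against 0.308 in Step2 replicate 1, with 2. Replicate 2 of Step1 and of Step2 had 0 in members' regions, against 0.215 and 0.405 per Mb of the genome. The 3 positions with the most reads are shown in their surroundings, 5′ to 3′ on the strand of the reads, with the base at the break end in capitals, because each supplies a large share of its gene's reads in 1 library.
Vmn1r69 (chr7:10580711-10580791, - strand): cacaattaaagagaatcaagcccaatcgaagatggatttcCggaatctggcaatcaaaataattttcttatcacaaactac
Vmn2r56 (chr7:12695020-12695100, - strand): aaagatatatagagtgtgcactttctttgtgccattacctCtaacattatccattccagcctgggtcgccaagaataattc
Vmn1r183 (chr7:24064864-24064944, - strand): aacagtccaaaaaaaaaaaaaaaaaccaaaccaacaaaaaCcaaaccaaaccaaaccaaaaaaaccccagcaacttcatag
The Vmn1r69 position, in a coding exon, held 22 of the 62 reads of Con replicate 1 in that region. The Vmn2r56 position, in an intron, held 20 of 41 reads of Con replicate 1. The position beyond the end of Vmn1r183 held 20 of 40 reads of Con replicate 2.

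Between groups, the pooled share of reads in all members differed little. It was 2848 and 2889 RPM in Step2, 2890 and 2890 in Step1, and 2831 and 2840 in Con, each library with a 95% Wilson interval (counting error only) that reached into those of the other groups. Both Step2 and both Step1 libraries stood above both Con libraries, by 1.17% and 1.94% of the Con mean, and both Step2 libraries lay below both Step1 libraries (-0.751% of the Step1 mean). The exact permutation test of 2 against 2 libraries gave p = 0.33 in each comparison, the smallest it can give. Within the 2 sequencing runs that each library combined, Step2 minus Con was 94.8 RPM in run 1 and -21.8 in run 2, and Step1 minus Con was 140.0 and -2.63, so the difference did not hold in both.

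Vmn1r regions had 1254 and 1208 RPM in Step2, 1229 and 1254 in Step1, and 1215 and 1183 in Con. Vmn2r regions had 1593 and 1682 in Step2, 1661 and 1636 in Step1, and 1615 and 1656 in Con. Both Step1 libraries stood above both Con libraries for Vmn1r, and the 3 groups overlapped for Vmn2r. For Vmn1r, Step1 minus Con was 41.9 RPM, but 105.0 in run 1, -4.82 in run 2 and 14.5 with scores of 42. Of the 11 chromosomes, the Step2 mean was above Con on 7 and above Step1 on 6, and the Step1 mean was above Con on 9. Libraries did not overlap on 3, 2 and 3 of them. Of all ways to assign 2 against 2 libraries, a share of 0.33 leaves the groups apart, so these counts show no difference. On chromosome 17 the share was 687 and 652 RPM in Step2, 635 and 687 in Step1, and 601 and 644 in Con. There Step2 minus Con was 92.6 RPM in run 1 and 6.31 in run 2.

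Tested one by one, no vomeronasal region passed. Of the 329 members, 238 had at least 10 reads in at least 2 libraries and were tested, 141 Vmn1r and 97 Vmn2r, beside 19939 regions in all; the 91 not tested had a median of 8 reads. With limma voom and Benjamini-Hochberg adjustment over all regions, 0 members were called between Step2 and Con, where 0.211% of all tested regions were. Between Step2 and Step1 the count was 0 against 0.0752% of all regions, and between Step1 and Con 0 against 0.181%. limma-trend also called 0 in each. At an unadjusted p below 0.05 there were 13 members between Step2 and Con (all regions, 8.7%), 3 between Step2 and Step1 (3.43%) and 10 between Step1 and Con (8.1%).

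The members' fold changes were centred near 0. The median log2 fold change was 0.05 for Step2 against Con, where it was -0.05 over all regions, -0.00 for Step2 against Step1, where it was 0.00, and 0.05 for Step1 against Con, where it was -0.05. The contrast in the 2 comparisons with Con varied between settings. With 1 read per position the members had 0.005 (Step2) and 0.045 (Step1), and all regions -0.052 and -0.072. With scores of 42 the members had -0.057 and -0.013, and all regions -0.054 and -0.056. Without Con replicate 2 the members had -0.038 and -0.030, and all regions -0.036 and -0.039. Both Step2 libraries were above both Con libraries in 39 members, 16.4% of those tested, and below in 45, or 18.9%, against 15.3% and 22.7% of all regions. Against Step1, Step2 was above in 32 members and below in 46, 13.4% and 19.3%, against 16.9% and 17.5%. Step1 was above Con in 41 and below in 39, 17.2% and 16.4%, against 15.5% and 22.7%. The share of members farthest from that of all regions was Step1 below Con, at 16.4% against 22.7%. Whether such gaps exceed the spread between libraries was not tested.

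**Figure D5:**
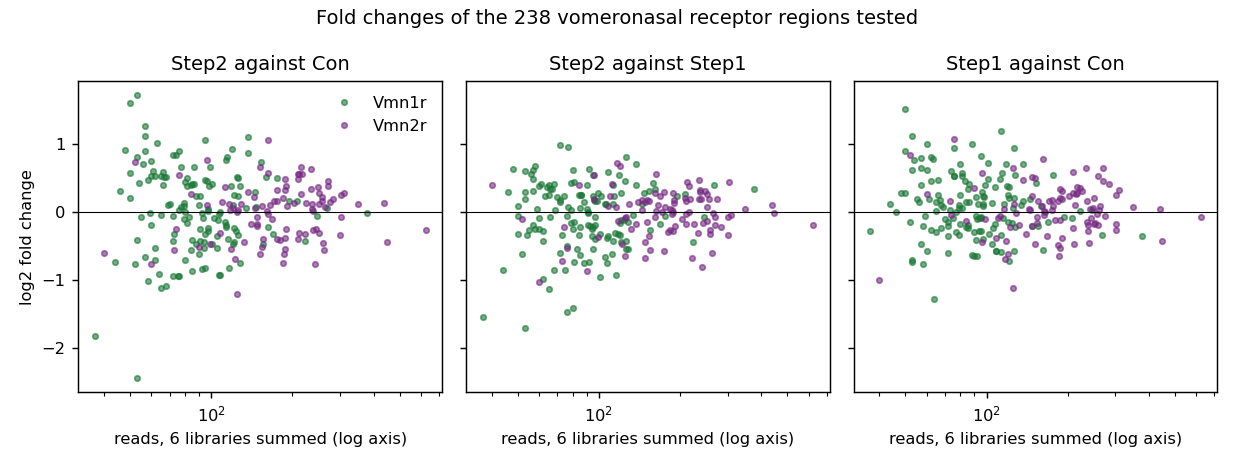
log2 fold change (voom) of the 238 tested members against their reads summed over the 6 libraries, on a log axis, for Step2 against Con, Step2 against Step1 and Step1 against Con; green points are Vmn1r and purple points Vmn2r genes. Points spread around 0 and more widely at low reads; the lowest, Vmn1r64 at -2.45 in Step2 against Con, and all others missed an adjusted p of 0.05.

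Values of the members with the smallest p follow. Vmn2r2 (chr3:64115278-64141928, - strand), a family C V2R, had the smallest adjusted p of any member. It had 29 and 26 reads in Step2, 40 and 27 in Step1, and 18 and 22 in Con, or 19.9 and 18.3, 17.5 and 13.9, and 8.17 and 10.1 RPM. Both Step2 and both Step1 libraries stood above both Con libraries. Its log2 fold change for Step2 against Con was 1.07 ± 0.36 (SE; limma voom adjusted p = 0.367) and for Step1 against Con 0.78 ± 0.35 (adjusted p = 0.564). For Step2 against Con, Vmn1r14 and Vmn1r55 followed among the higher ones, with log2 fold changes of 1.11 and 0.87. Vmn1r55 (chr7:5129291-5149670, - strand) had 17.1 and 17.6 RPM in Step2, 11.4 and 9.79 in Step1, and 10.9 and 8.24 in Con. It also had the smallest p among members higher in Step2 than in Step1 (log2 fold change 0.71 ± 0.36 SE, limma voom adjusted p = 0.999), and 20.4% of its reads scored below 30. Vmn1r178 and Vmn1r215 came next in that comparison, at 0.99 and 0.95.

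In the lower direction, Vmn1r64 (chr7:5883580-5884542) had 0 and 4.23 RPM in Step2, 2.63 and 6.18 in Step1, and 6.35 and 6.87 in Con, with 1 Step2 library at 0. Vmn2r67 (chr7:85126967-85155998) had 11.7 and 15.5 RPM in Step2, 24.1 and 23.7 in Step1, and 22.2 and 24.3 in Con. Both Step2 libraries of Vmn2r67 lay below the other 4, with log2 fold changes of -0.77 ± 0.33 against Con and -0.81 ± 0.33 against Step1 (SE; limma voom adjusted p = 0.505 and 0.999). Vmn1r59 and Vmn1r235 were the other members with the smallest p below Step1, at -1.42 and -1.48.

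Vmn2r85 (chr10:130414064-130429703) had 8.91 and 4.23 RPM in Step2, 3.07 and 16.5 in Step1, and 12.3 and 18.3 in Con. Step1 replicate 1 was the lowest of the 6 libraries and Step1 replicate 2 lay between the Con libraries. Its log2 fold change was -1.12 ± 0.45 (SE) for Step1 against Con (limma voom adjusted p = 0.497) and -1.21 ± 0.55 for Step2 against Con (adjusted p = 0.531). Without Con replicate 1 it was the 1 member called in any setting, at -1.41 ± 0.41 for Step1 against Con (adjusted p = 0.031), and without Step1 replicate 1 the value was 0.14. In that fit without Con replicate 1, 2.9% of all 19468 regions tested were called, against 1 of 233 members. The other members with the smallest p between Step1 and Con were Vmn1r203 at 1.19, Vmn1r13 at 0.94 and Vmn2r17 at 0.65 in the higher direction, and Vmn1r233 at -1.28 and Vmn2r71 at -0.42 in the lower.

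Receptors with a known role were described apart. The family C V2Rs, Vmn2r1 to Vmn2r7, are co-receptors found alongside other V2Rs in basal vomeronasal neurons, and all 7 lie at chr3:64081547-64844765. That cluster held 129 and 141 RPM in Step2, 151 and 133 in Step1, and 130 and 163 in Con, and the groups overlapped. Reads per kb of these genes ran from 2.27 in Vmn2r5, with 31.4% unique words, to 6.09 in Vmn2r3, with 93.5%. Vmn2r5 had 9 and 7 reads in Step2, 6 and 7 in Step1, and 8 and 34 in Con, and 14 of the 34 shared 1 position; it was not tested. Vmn2r116, the receptor of the male tear peptide ESP1, had 10.3 and 9.87 RPM in Step2, 11.8 and 20.1 in Step1, and 15.4 and 11.9 in Con. Vmn2r26, which detects peptides presented by major histocompatibility molecules, had 11.7 and 21.9 in Step2, 13.6 and 17.5 in Step1, and 15.4 and 13.3 in Con. The haemoglobin receptor Vmn2r88 had 8.91 and 12.0 in Step2, 10.5 and 7.73 in Step1, and 4.99 and 7.33 in Con; both Step2 libraries stood above both Con libraries, with a log2 fold change of 0.77 ± 0.46 (SE; limma voom adjusted p = 0.668).

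Among V1Rs, Vmn1r89, a receptor of sulfated steroids, had 9.60 and 8.46 RPM in Step2, 6.58 and 9.27 in Step1, and 9.08 and 10.5 in Con. Of its reads in Con replicate 2, 52.2% (12 reads) shared 1 position. Vmn1r85, also a receptor of sulfated steroids, had 5.48 and 11.3 in Step2, 7.89 and 10.8 in Step1, and 8.17 and 7.33 in Con. Vmn1r49, which responds to 2-heptanone, had 13 and 18 reads in Step2, 15 and 15 in Step1, and 23 and 24 in Con. Per read of the library, both Step1 libraries of Vmn1r49 were the lowest of the 6, with a log2 fold change of -0.58 ± 0.40 against Con (SE; limma voom adjusted p = 0.747).

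Genes that act with the receptors were counted in the same way. None of 17 genes of vomeronasal signalling and cell fate, among them Trpc2, Gnai2 and Gnao1, was called in any comparison, and their median log2 fold changes were -0.29, -0.18 and -0.15 for Step2 against Con, Step2 against Step1 and Step1 against Con, where all regions had -0.05, 0.00 and -0.05. Trpc2, the transduction channel, had 6.85 and 3.53 RPM in Step2, 5.26 and 7.73 in Step1, and 9.08 and 7.79 in Con. None was called among the 7 formyl peptide receptor genes, 5 tested of 9 class Ib MHC genes of the organ, and 18 tested of 37 genes of the Mup and Esp pheromone families. Of 1055 tested olfactory receptor genes 1 was called, Olfr1274-ps, higher in Step2 than in Con and in Step1, with 1866 and 2649 reads in Step2, 107 and 154 in Step1, and 23 and 17 in Con. Most of the reads in Step2 and Step1 lay in piled-up windows: outside these the gene had 8 and 1 reads in Step2, 4 and 7 in Step1, and 14 and 8 in Con, and no longer passed the filter on low counts.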

How the data were processed

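BLISS libraries from 6 samples were analysed. Per the series' design text, duplicates were removed by molecular identifier; per the submitters' processing notes, alignment to mm10 used Bowtie2, and SAMtools and bedtools made the files, with versions not given in the sources used here. The deposited files list the reads with a score, the aligner's mapping quality, from 11 to 42; the values are the authors' own and were used as a filter.

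Read 5′ ends were counted per region (gene body plus 5 kb). Library size was the reads on chromosomes 1 to 19 and X outside 26 piled-up windows of 10 kb (over 20 times the median window). The filter was 10 or more reads in 2 or more libraries, and the fit used limma 3.58.1 (voom, 3 group means over all 6 libraries) in R 4.3.3. It was tested on simulated data and used Benjamini-Hochberg adjustment over all regions tested. Exact permutation tests compared pooled shares, and exact paired tests compared gene classes within libraries. Unique words were counted in the GRCm38 primary assembly. Intervals are 95% Wilson and cover counting error only. The deviations of same-numbered libraries had correlations of 0.00812 to 0.0173 over 19939 regions. Counting error lowers such correlations, so this check could not exclude that the numbers pair the libraries. With a replicate block the fit called more regions in each comparison. For Step2 against Con it called 8 higher and 83 lower, against 4 and 38 without the block. The main fit used no pairing. Members named were those with the smallest p, the most or fewest reads, low scores, a known role, or a position with at least 10 reads. The members and lists were chosen with earlier results of these data known.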

Additional observations from a re-analysis of the deposited data

How the results depend on the processing

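With 2 libraries a group, small differences could be missed, and 91 members had too few reads for the fit. The count of members called was 0 in each comparison under every alternative run, the replicate block included (0 called in each comparison), except for 1 without Con replicate 1 in Step1 against Con (1 of 233 members, where 2.9% of all regions were called); leaving out 1 library gave 0 to 1. The log2 fold change of Vmn2r85 for Step1 against Con, -1.12, ran from -2.21 to 0.14 with 1 library left out, the last without Step1 replicate 1; no other member named for its small p changed direction. The cause was not tested in any of these. For the pooled share, the exact permutation test of 2 against 2 libraries cannot give a p below 0.33 in any setting, so only the differences are compared here. The pooled difference of Step2 against Con, 33.2 RPM, was -0.725 with scores of 42, 64.6 with 10 kb flanks, and 94.8 and -21.8 in runs 1 and 2. That of Step2 against Step1, -21.7, was -80.0 with 1 read per position, 25.1 with 10 kb flanks, -45.2 in run 1 and -0.649 with library size from all reads. That of Step1 against Con, 54.9, was 129.3 with 1 read per position, 40.9 with scores of at least 30, 6.19 with scores of 42, 37.1 without flanks, 39.4 with 10 kb flanks, 140.0 and -2.63 in runs 1 and 2, and 25.6 with library size from all reads. Within libraries, density against other genes (-0.22) was -0.15 with 1 read per position (adjusted p = 0.0402), -0.52 with scores of 42, 0.0946 per unique kb and 0.18 per unique kb without piled-up windows. Density against olfactory receptors (-0.26) was -0.18 with 1 read per position (adjusted p = 0.0402), -0.37 with scores of 42, -0.00497 per unique kb and 0.0780 per unique kb without piled-up windows. Density of Vmn1r against Vmn2r (0.0186) was -0.0262 with 10 kb flanks, -0.0130 per unique kb with or without piled-up windows, 0.0885 with scores of 42 and 0.17 without flanks. The start ratio against other genes (-0.33) was -0.48 with 1 read per position, and that of Vmn1r against Vmn2r (0.20) was 0.16, both then passing 0.05 with fewer tests to adjust over. The start ratio against olfactory receptors (-0.0116) was 0.0292 with 1 read per position, 0.0693 in run 2, and -0.0483 to 0.0112 with 1 library left out (0.00185 without Step2 replicate 2). Reads per distinct position against other genes (-0.0770) turned to 0.00922 with scores of 42 and 0.0216 without piled-up windows. Against olfactory receptors (-0.0864) it turned to 0.00954 without flanks and 0.00664 without piled-up windows. For Vmn1r against Vmn2r (-0.00171) it turned to 0.0117 with scores of 42, 0.00293 without flanks, and -0.00734 to 0.00354 with 1 library left out (0.00176 without Con replicate 2 and 0.00183 without Step2 replicate 1). The share of scores below 30 against other genes (0.249 percentage points) turned to -0.648 in run 2.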
